A study of Mus musculus with 12 samples.

Results

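CTCF peaks in brain were compared between wild-type mouse embryos and embryos homozygous for the R567W change in Ctcf. The 2 brain lists held 74424 of the 183882 peak regions in the 6 CTCF lists of the series. Regions with the same chromosome, start and end were counted once, and a region was called shared where it overlapped a region of the other brain list by at least 1 bp. By this rule, 6666 of 36034 wild-type regions (18.499%) were wild-type-only and 9391 of 38390 mutant regions (24.5%) were mutant-only. The shared class held 29368 wild-type and 28999 mutant regions.

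All embryos were C57BL/6 mice (C57BL/6 N in the study's methods) taken at E18.5, shortly before birth. R567W was introduced with CRISPR/Cas9, and the homozygous embryos carry it on both copies of Ctcf. Chromatin of HEK293T, a human embryonic kidney line, was mixed into each sample as a spike-in, and both genotypes received it. Each genotype was 1 ChIP library per organ, so nothing below has a replicate check and no test was made between genotypes. How many embryos went into a library was not given in the sources used here.

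CTCF binds DNA through a row of zinc fingers. The central fingers read a core motif found at most binding sites, and the last fingers, where R567 lies, can contact a further motif upstream of it. CTCF halts the cohesin ring that extrudes chromatin loops, which places many of its sites at domain borders, and it also sits at many promoters. In neurons it is best known for choosing which clustered protocadherin promoters are used.

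The sequences below are examples chosen by motif, position and fold enrichment, so differences between the sets in these features come from the choice. All are given 5′ to 3′ in GRCm38, with the called 19-base core motif in capitals. The first 4 come from the wild-type-only class and had its highest fold enrichments among peaks that carried the upstream consensus TGCAGTNCC with at most 2 mismatches, and its 9 bases are also in capitals. The Tcp11 peak is intronic and the others are intergenic. They lie at chr1:193699036-193699084 on the plus strand, chr17:28048646-28048694 on the minus strand, chr4:61811369-61811417 on the minus strand and chr1:112380150-112380198 on the minus strand. Each is named after the protein-coding gene with the nearest start site, with the signed distance to it, negative upstream.
Camk1g, -328777 bp: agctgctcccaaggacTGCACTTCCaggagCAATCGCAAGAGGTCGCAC
Tcp11, 31128 bp: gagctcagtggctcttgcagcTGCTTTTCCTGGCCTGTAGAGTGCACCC
Mup5, 23862 bp: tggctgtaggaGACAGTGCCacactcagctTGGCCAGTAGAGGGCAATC
Dsel, -515196 bp: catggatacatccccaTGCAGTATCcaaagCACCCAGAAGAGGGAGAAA
The upstream match had 1 mismatch and ended 5 bases before the core in the Camk1g and Dsel peaks, and it abutted the core in the Tcp11 peak. Their wild-type summit pileups were 129 reads at Camk1g, 95 at Tcp11, 95 at Mup5 and 115 at Dsel.

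Next are 4 of the strongest mutant-only promoter peaks, shown over 201 bases around the summit so that their base composition can be seen beside the motif. They lie at chr11:20542757-20542957 (plus strand), chr10:82985867-82986067 (plus), chr7:27396585-27396785 (minus) and chr11:76027745-76027945 (plus). In the Chst11 window no core motif was called, so it has no capitals.
Sertad2: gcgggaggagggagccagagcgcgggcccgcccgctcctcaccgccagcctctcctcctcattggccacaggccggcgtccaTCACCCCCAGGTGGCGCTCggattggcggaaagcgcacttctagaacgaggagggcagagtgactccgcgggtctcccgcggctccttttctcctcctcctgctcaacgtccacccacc
Chst11: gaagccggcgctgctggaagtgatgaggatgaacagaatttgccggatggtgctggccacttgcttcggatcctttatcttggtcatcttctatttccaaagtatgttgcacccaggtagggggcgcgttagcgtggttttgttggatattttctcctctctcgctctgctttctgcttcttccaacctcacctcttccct
Sptbn4: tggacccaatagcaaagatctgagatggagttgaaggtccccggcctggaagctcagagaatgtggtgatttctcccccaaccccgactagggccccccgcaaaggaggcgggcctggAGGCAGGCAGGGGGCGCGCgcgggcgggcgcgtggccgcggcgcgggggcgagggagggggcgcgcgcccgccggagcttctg
Rflnb: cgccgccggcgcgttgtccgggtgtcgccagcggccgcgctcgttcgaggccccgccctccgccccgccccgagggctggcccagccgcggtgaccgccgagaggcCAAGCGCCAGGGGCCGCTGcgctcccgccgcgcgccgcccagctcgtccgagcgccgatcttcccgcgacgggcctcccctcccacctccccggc
The upstream consensus was not called at these 4 promoters. Of the 10 mutant-only promoters of highest fold enrichment, Lrrc42 and Tnk2 had a core motif with an upstream match at 2 mismatches. Pcdhgb4, the highest of the 10, is not shown. It had an upstream match at 1 mismatch but no called core motif.

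For contrast, the 2 shared promoter peaks of highest fold enrichment with a core motif lie at chr2:29619587-29619787 (plus) and chr4:126321678-126321878 (minus).
Rapgef1: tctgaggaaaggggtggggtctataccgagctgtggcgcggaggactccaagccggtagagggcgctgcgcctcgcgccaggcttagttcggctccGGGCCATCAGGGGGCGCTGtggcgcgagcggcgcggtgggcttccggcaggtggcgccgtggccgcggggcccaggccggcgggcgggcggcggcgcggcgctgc
Adprhl2: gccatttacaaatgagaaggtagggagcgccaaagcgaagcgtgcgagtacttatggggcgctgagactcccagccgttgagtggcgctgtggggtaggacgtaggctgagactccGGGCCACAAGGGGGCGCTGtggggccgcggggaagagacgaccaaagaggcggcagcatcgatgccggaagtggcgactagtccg
The summit pileup at Rapgef1 was 782 reads in wild-type and 1181 in mutant brain, and at Adprhl2 it was 637 and 763.

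Total read numbers were not used here. The genome background recovered from the peak caller's own values was 1.70 reads per window in the wild-type list and 2.02 in the mutant list, over windows set by shortest regions of 191 and 218 bp. This gives 8.92 and 9.27 reads per kb of effective genome. Summit pileup is the number of read fragments stacked over a summit, and its lowest value was 8 reads in both lists. A site without a listed peak has therefore an unknown level and is not an empty site. Peaks do not measure expression, so the label brain could not be tested against transcripts. Of the neural markers, 3 of 10 promoters carried a peak in wild-type and 5 of 10 in mutant brain, while 0 of 7 cardiomyocyte, 1 of 6 lung and 1 of 5 blood marker promoters did in each list. Over all protein-coding genes the shares were 24% and 34%. CpG-rich genes, as defined below, made up 80% of the neural, 14.3% of the cardiomyocyte, 16.7% of the lung and 0% of the blood markers. The part of CpG content in these counts was not tested.

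Peaks listed in 1 genotype were mostly weak. The median summit pileup was 19 reads in the wild-type-only class and 16 in the mutant-only class, against 50 in shared wild-type regions and 49 in shared mutant regions. Median fold enrichment, the authors' ratio of pileup to local background, was 6.66, 4.97, 15.9 and 14.5 in the same order. Strong peaks were more frequent in the wild-type-only class, where 365 reached 50 reads, than in the mutant-only class, where 54 did. Of these, 14 of the wild-type-only peaks and 32 of the mutant-only peaks lay at promoters. A peak of the other list lay within 500 bp of 3.60% of wild-type-only and 4.03% of mutant-only peaks, which are the members closest to the overlap limit.

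How large each class was depended on the significance asked of a peak. When only peaks with a −log10 q of 20 or more were kept, a threshold chosen after the data were seen, 19.1% of wild-type and 13.6% of mutant regions had no counterpart, so the order of the 2 shares turned.

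To describe where the classes lie, each summit was placed at a promoter (within 1 kb of a transcription start site), in an exon, an intron or between genes. Promoters held 9.92% of the wild-type-only class (661 peaks, 95% Wilson interval 9.22 to 10.7%), 20.4% of the shared class (5984 peaks, 19.9 to 20.8%) and 34.2% of the mutant-only class (3215 peaks, 33.3 to 35.2%). Introns held 47.0%, 40.4% and 39.1%, and intergenic sequence 38.3%, 34.3% and 22.7%. Exons held between 4.04% and 5.01% of each class. Intervals here and below cover counting error only, not differences between embryos or libraries.

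**Figure D1:**
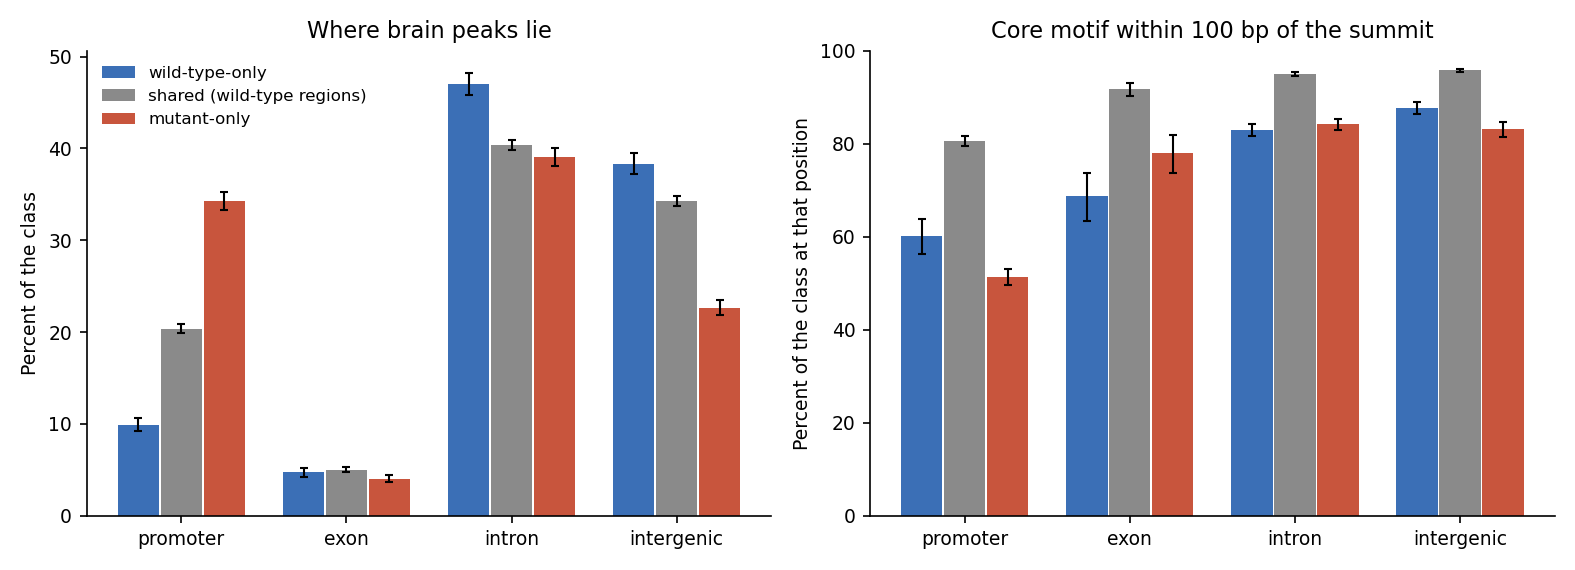
Left, percent of wild-type-only (blue), shared (grey, counted on wild-type regions) and mutant-only (red) brain peaks at promoters, exons, introns and intergenic sequence. Right, percent of the peaks at each position with a core motif within 100 bp of the summit. Bars show 95% Wilson intervals. The promoter share runs from 9.92% in the wild-type-only to 34.2% in the mutant-only class, and promoter peaks of the mutant-only class hold the core motif least often, at 51.3%.

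Promoters stood at opposite ends of the 2 lists. Among wild-type promoter peaks, 9.95% had no mutant counterpart (9.25 to 10.7%), below the 20.9% of intronic and 20.3% of intergenic peaks. Among mutant promoter peaks, 35.7% had no wild-type counterpart (34.7 to 36.7%), above the 23.8% of intronic and 17.6% of intergenic peaks. The contrast was also present among peaks of like signal. Among peaks of 15 to 24 reads, 17.0% of wild-type promoter peaks and 43.0% of other wild-type peaks were wild-type-only. In the mutant list, 62.3% of promoter peaks and 42.1% of other peaks with such pileups were mutant-only.

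Promoter peaks of the classes also sat differently around the start site. The median summit of shared promoter peaks was 34 bp upstream of the start site, with quartiles at -211 and 209 bp. Mutant-only promoter peaks had their median 60 bp downstream, with quartiles at -148 and 263 bp. In the wild-type-only class the median was 40 bp downstream, and the summits were more scattered, with quartiles at -214 and 391 bp.

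**Figure D2:**
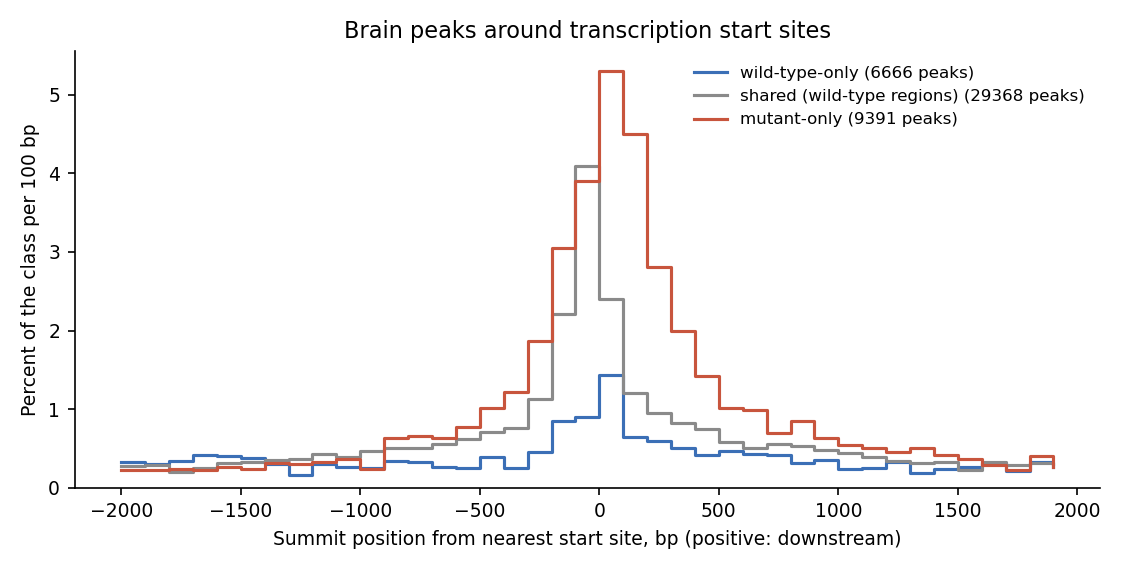
Percent of each class per 100 bp of distance between summit and nearest start site, with positive values downstream. Shared peaks (grey) are highest just upstream of the start site, and mutant-only peaks (red) in the first 100 bp downstream, where the percentages are 5.30% for the mutant-only, 2.41% for the shared and 1.44% for the wild-type-only class (blue).

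The kind of gene differed as well. The nearest start site belonged to a protein-coding gene in 84.7% of mutant-only promoter peaks (83.4 to 85.9%), 78.0% of shared ones (76.9 to 79.04%) and 62.9% of wild-type-only ones (59.2 to 66.5%). Start sites of snoRNAs, short RNAs that guide RNA modification, were nearest in 33 of 661 wild-type-only promoter peaks (4.99%) and in 10 of 3215 mutant-only ones (0.311%). Processed pseudogenes made up 6.66% and 1.40%. A start site on each strand lay within 1 kb of 19.9% of mutant-only promoter peaks (18.6 to 21.3%), 15.4% of shared ones and 11.6% of wild-type-only ones. Where a core motif and a protein-coding start site were both present, the motif lay on the strand of the gene in 50.6% of 1440 mutant-only, 56% of 3883 shared and 55.1% of 216 wild-type-only promoter peaks.

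CpG islands, the unmethylated CG-dense stretches that mark many housekeeping and developmental promoters, were counted by sequence alone. A window of 201 bp was called CpG-rich at a GC content of at least 55% and an observed to expected CpG ratio of at least 0.6. By this measure 47.5% of all protein-coding start sites were CpG-rich, in windows centred on the start site and not on a summit. So were 34.0% of wild-type-only promoter peaks (30.5 to 37.7%), 51.4% of shared ones (50.1 to 52.7%) and 63.4% of mutant-only ones (61.7 to 65.1%). In exons the shares were 9.87%, 18.4% and 20.8% in the same order, in introns 0.542%, 2.22% and 3.43%, and in intergenic sequence 0.587%, 3.43% and 3.38%. Summits in repeat-masked sequence were as common in the wild-type-only class (28.7%) as in the mutant-only class (28.4%), and less common in the shared class (13.2%). By position, the shares of the wild-type-only and mutant-only classes were 18.3% and 8.55% at promoters, 32.8% and 41.6% in introns and 28.1% and 37.6% in intergenic sequence. In exons they were 15% and 16.4%, with overlapping intervals.

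The core motif was then located within 100 bp of each summit. It was called in 81.8% of the wild-type-only class (80.9 to 82.7%), in 92.2% of the shared class (91.9 to 92.5%) and in 72.5% of the mutant-only class (71.6 to 73.4%). Windows centred 1100 bp away gave 7.77%, 9.06% and 9.66%. The shares of the wild-type-only and mutant-only classes were 82.9% and 84.3% in introns, 87.7% and 83.1% in intergenic sequence, 68.8% and 78.1% in exons, and at promoters 60.1% (56.3 to 63.7%) and 51.3% (49.5 to 53.0%). All protein-coding start sites, taken over windows of the same length centred on the start site, gave 21.6%. Of the 2653 mutant promoter peaks without a core motif, 59.1% had no wild-type counterpart, against 25.9% of the 6360 with one.

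Among peaks with a core motif, the upstream consensus was called in 36.4% of wild-type-only (35.1 to 37.7%), 26.3% of shared (25.8 to 26.8%) and 18.2% of the mutant-only class (17.3 to 19.1%). In the mirrored window of 30 bases downstream of the core, the same letters gave 14.9%, 13% and 12%. At mutant-only promoter peaks the upstream share was 11.8% (10.4 to 13.5%) and the mirrored share 13.1%. Wild-type-only promoter peaks had 32.7% (28.3 to 37.5%) and 12.8%. With at most 1 mismatch, the consensus ended 5 bases before the 19-base core in 85.6% of matches in the wild-type-only class, 75.8% in the shared class and 85.6% in the mutant-only class.

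Short letter patterns of other promoter factors were counted in the 201-bp windows on both strands. Patterns may overlap each other and the core motif, and a match is no proof of binding. GGGCGG, the GC box of SP and KLF factors, was in 45.4% of mutant-only promoter peaks (43.6 to 47.1%), 38.6% of shared ones, 25.4% of wild-type-only ones and 40.1% of all protein-coding start sites. CCAAT, the NFY box, was in 16.8%, 18.1% and 20.4% of the mutant-only, shared and wild-type-only promoter peaks and in 25.4% of start sites. CCGGAAG (ETS factors) was in 6.97%, 6.87% and 4.69%, against 9.11% of start sites. GCATGCGC (NRF1) was in 1.09%, 2.12% and 0.756%, against 2.41%. TGACGTCA (CREB family), AAGATGGC (YY1) and CACGTG (E-box) were in at most 4.84% of promoter peaks of any class, and in at most 5.11% of start sites.

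At shared sites, signal was compared after dividing each pileup by the genome background of its list. Overlapping regions of the 2 lists were joined into 28964 sites, and the strongest region of each list stood for the site. The spike-in correction does not enter these lists, so only contrasts between kinds of site can be read. On the log2 scale, mutant over wild type, the median ratio over all shared sites was -0.04. The scaled pileup was at least 2 times higher in the mutant at 924 sites (3.19%) and at least 2 times lower at 3285 (11.3%). Both counts would shift with a spike-in factor. At promoters the median log2 ratio was 0.41, with quartiles at -0.05 and 0.74, and median pileups of 41 reads in wild-type and 58 in mutant brain. It was -0.12 in introns and -0.18 in intergenic sequence, where the medians were 59 and 50 reads.

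Within promoters this log2 ratio differed by CpG content and by motif. CpG-rich promoters had a median of 0.55 and other promoters 0.23. Away from promoters, CpG-rich sites had 0.29 and others -0.16, so the ratio was higher at CpG-rich sites in both settings. Promoters with start sites on both strands had 0.57. Among core-motif sites outside promoters, the ratio was -0.33 with the upstream consensus and -0.06 without it, and at promoters it was 0.24 and 0.47. Local background at shared promoter peaks was 1.42 times the genome background in the wild-type list and 1.35 times in the mutant list. The part of base composition and local background in these ratios was not tested.

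**Figure D3:**
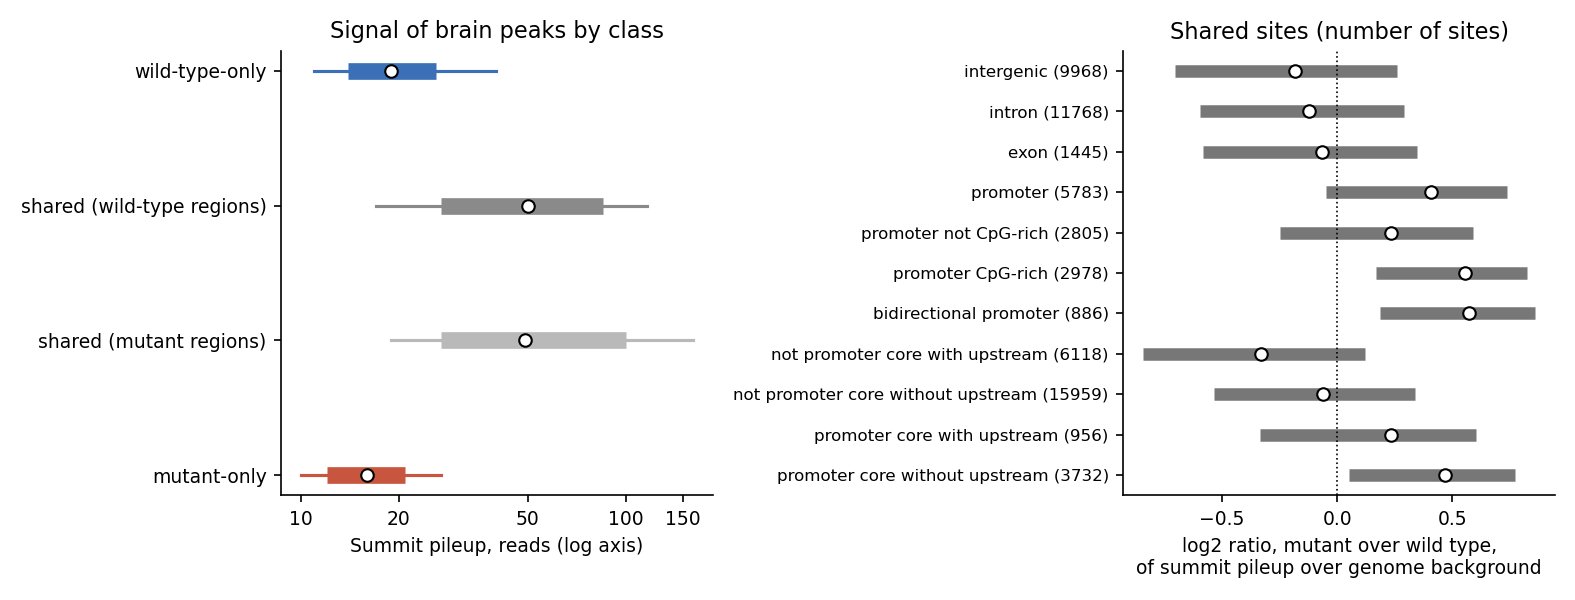
Left, summit pileup in reads on a log axis, with the median (circle), quartiles (thick bar) and 10th to 90th percentiles (thin line) of each class. Medians are 19 reads in the wild-type-only and 16 in the mutant-only class, and 50 and 49 in the shared regions. Right, median and quartiles of the log2 ratio of background-scaled pileup at shared sites, by position, CpG content and upstream consensus. The promoter median is 0.41, and core-motif sites outside promoters with the upstream consensus lie lowest, at -0.33.

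The promoter peaks were next assigned to genes. A peak near start sites of several genes was counted at each of them, so genes that share a promoter are not separate observations. Of 21938 protein-coding genes, 5272 (24%) had a wild-type summit and 7463 (34%) a mutant summit within 1 kb of a start site. A peak in both lists was found at 4906 genes, in the mutant list only at 2546 genes (11.6% of all) and in the wild-type list only at 333 genes (1.52%). When only peaks with a −log10 q of 20 or more were kept, the mutant-only and wild-type-only counts were 1024 and 163 genes. A further 44 genes had regions that overlapped while only 1 of the summits lay within 1 kb. CpG-rich genes accounted for most of the mutant-only group: 18.8% of 11646 CpG-rich genes were in it (18.1 to 19.5%), against 3.50% of the 10292 other genes (3.16 to 3.87%). At the promoters of genes with peaks in both lists, the scaled pileup was at least 2 times higher in the mutant at 633 (12.9%) and at least 2 times lower at 117 (2.38%). Over all shared sites these shares were 3.19% and 11.3%. The counts would shift with a spike-in factor, which these lists lack, so they give no net gain or loss of binding.

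The mutant-only promoter peak of highest fold enrichment, with 130 reads, lay 54 bp upstream of Pcdhgb4, a gamma protocadherin, on chromosome 18. Next came Sertad2, a transcriptional co-regulator, with 96 reads, and Chst11, a chondroitin sulfotransferase, with 87 reads. Sptbn4 encodes the beta spectrin of the axon initial segment and had 57 reads, as had Rflnb, which encodes a filamin-binding protein. Lrrc42 had 56 reads. Tnk2, a non-receptor tyrosine kinase gene, had 76 reads. Tsc22d3, the glucocorticoid-induced leucine zipper gene, had 53 reads, and Mroh5 had 65. Fold enrichments ran from 17.7 at Mroh5 to 43.4 at Pcdhgb4.

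Most of the 10 mutant-only promoters of highest fold enrichment were also listed in lung. A peak of the mutant lung list overlapped 9 of them, all but Sptbn4, and the wild-type lung list overlapped 8, lacking Sptbn4 and Mroh5. Pcdhgb4 was also in both heart lists. Sptbn4 was listed in neither heart nor lung.

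Among the wild-type-only promoter peaks of highest fold enrichment, Rasl2-9, a Ran-like GTPase gene, had 78 reads, with the summit 28 bp upstream of its start. Chrdl2, which encodes a chordin-like secreted protein, had 65. Rgsl1 had 58, and the kinase gene Sbk2 had 50. Trpm8, the cold-sensing ion channel, had 46, and the transporter gene Abca15 had 47. Usp50 had 44, the aldehyde oxidase gene Aox3 had 48, the olfactory receptor gene Olfr1499 had 43 and Nkpd1 had 38. Fold enrichments ran from 14.4 to 24.5. A core motif was called in all 10, against 8 of the 10 mutant-only promoters. The wild-type lung list overlapped all 10, the mutant lung list 7, the wild-type heart list 6 and the mutant heart list 1, which was Rgsl1.

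Among shared promoter sites with at least 40 reads in the stronger list, the largest excess in the mutant was at Zfp219, a zinc finger gene, with 8 reads in wild-type and 59 in mutant brain. Myl12b, a myosin light chain gene, had 19 and 110 reads. The lipase gene Abhd16a had 19 and 89, the coronin gene Coro2b 19 and 87, and Clip3, which encodes a microtubule-binding linker, 11 and 50. Their log2 ratios, without spike-in correction, lay between 1.94 and 2.64.

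The largest deficits in the mutant were ranked by the same background-scaled ratio. Homez, a homeobox gene, had 62 reads in wild-type and 15 in mutant brain. Spata20 had 174 and 47, and the nucleoside transporter gene Slc29a3 had 65 and 18. At Gh, the growth hormone gene, the counts were 62 and 18. At Irf9, a subunit of the interferon-activated factor ISGF3, they were 93 and 29. The log2 ratios lay between -2.29 and -1.93. All of them but Slc29a3, which was in the wild-type lung list only, were in both lung lists.

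Gene groups of brain and of general cell function were read against the background over all protein-coding genes, 11.6% mutant-only and 1.52% wild-type-only, and against their CpG-rich share. Among neural progenitor and forebrain regulators, 15 of 60 genes (25%) had a mutant-only promoter peak and 1 a wild-type-only one. Examples were Pou3f3 with 24 reads and Foxp1 with 27, and Lmo4 and Pax6, the cortical patterning factor, with 16 each. The wild-type-only gene was Nr2f2, with 14 reads. In this group 66.7% of genes were CpG-rich, against 53.1% of all genes.

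Axon guidance genes showed 15 of 61 mutant-only (24.6%) and 3 wild-type-only, with 86.9% CpG-rich. The semaphorin genes Sema4a and Sema6d had mutant-only peaks of 27 and 16 reads, the guidance cue Draxin 26 and the ephrin Efnb3 19. The wild-type-only members were the ephrin receptor Epha6 with 15 reads, Sema5a with 12 and Sema4d with 9.

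Synaptic and channel genes had smaller mutant-only shares than the forebrain regulator and axon guidance groups, a difference that was not tested. Over all protein-coding genes the share was 11.6%, below that of the presynaptic group. CpG-rich genes made up 77.5% of the presynaptic and 60% of the postsynaptic group, against 53.1% of all genes. Presynaptic proteins had 7 of 40 mutant-only (17.5%), among them Napb (22 reads), Sv2b (27), Erc1 (14) and Stx1a (17), with Unc13a as the wild-type-only member at 10 reads. Postsynaptic proteins and receptors had 7 of 60 (11.7%) and no wild-type-only gene. They included the GABA receptor subunit Gabrb2, with 22 reads, and the scaffolds Dlg1 and Dlgap3, with 26 each. Voltage-gated ion channels had 1 of 40 (2.50%), the potassium channel Kcnd2 with 13 reads, although 75% of them were CpG-rich and 21 of 40 carried a peak in both lists.

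Genes tied to human neurodevelopmental disorders had 15 of 57 mutant-only (26.3%) and 3 wild-type-only, with 87.7% CpG-rich. The histone methyltransferase Kmt2d had 40 reads, the cohesin subunit Rad21 32, Foxp1 27 and the histone demethylase Kdm6a 18. The wild-type-only members were Kmt2a (22 reads), Nsd1 (20), also histone methyltransferases, and Arid1a (11), a chromatin remodeller subunit.

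The clustered protocadherins encode neural adhesion proteins, and many of their promoters are known to carry a CTCF site. The study examined them in these mice, so their counts are not independent of that choice. Of 57 genes, 13 had a promoter peak in both lists, 8 in the mutant only (14.0%) and 4 in the wild type only (7.02%), while 32 had none. Over all protein-coding genes the mutant-only and wild-type-only shares were 11.6% and 1.52%. Per the study's methods, CTCF signal at most of these promoters was weak, and default peak calling hardly found the sites there. The study therefore picked these regions by hand, and a gene without a listed peak has an unknown level. Of them 6 of 57 were CpG-rich, against 53.1% of all genes. After Pcdhgb4, mutant-only peaks were highest in fold enrichment at Pcdha4 (32 reads), Pcdhgb1 (29) and Pcdhga6 (26). The wild-type-only members were Pcdhga10 (33 reads), Pcdhb17 (20), Pcdha9 (20) and Pcdhga2 (12).

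Of the 13 clustered protocadherin genes with peaks in both lists, 4 had a scaled pileup at least 2 times higher in the mutant and 0 at least 2 times lower. Over all 4906 genes with peaks in both lists, the shares were 12.9% and 2.38%, and the difference was not tested. At Pcdhgb5 the pileup was 17 reads in wild-type and 77 in mutant brain, at Pcdhga5 it was 18 and 66, and at Pcdhga8 17 and 50. Pcdhgb7 had 44 in both, and Pcdhgc3 had 58 and 35. Pcdhac1, a C-type gene of the alpha cluster, had 91 and 119 reads, a log2 ratio of 0.14 after scaling. These genes were named after their values were seen, apart from those chosen by fold enrichment above. The median log2 ratio over the 13 genes was 0.28, against 0.49 over all genes with peaks in both lists.

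CTCF and cohesin genes had peaks in both lists at 9 of 18 members and a mutant-only peak at 3 (16.7%, against 11.6% over all protein-coding genes). These 3 were Rad21 (32 reads), the cohesin loader Nipbl (14) and Zfp143 (14), and 83.3% of the group was CpG-rich. At Ctcf itself the promoter had 68 reads in wild-type and 109 in mutant brain, a log2 ratio of 0.43. The median over all genes with peaks in both lists was 0.49. Hox genes, the patterning factors of the body axis, had the lowest median log2 ratio of the groups with at least 5 genes in both lists. It was -0.35 over 5 genes, from -0.84 at Hoxb5 to -0.19 at Hoxa10, and Hoxc10 had a wild-type-only peak of 26 reads. These Hox genes, other than Hoxc10, and Ctcf were named after their values were seen. None of the 39 Hox genes had a mutant-only promoter peak, and 53.8% of them were CpG-rich, against 53.1% of all genes.

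Housekeeping groups varied. RNA splicing genes had 14 of 40 mutant-only (35%), the largest share of the groups examined, including Hnrnpk with 29 reads, Srsf11 with 23, U2af1 with 22 and Sf3a2 with 16. In this group 92.5% of genes were CpG-rich. Cytosolic ribosomal proteins had 11 of 83 (13.3%) and mitochondrial ribosomal proteins 8 of 78 (10.3%), with 83.1% and 89.7% CpG-rich. By fold enrichment, the largest of these peaks were at Mrpl51 and Mrps6, with 46 and 44 reads, and at Rps15a, with 20. Oxidative phosphorylation genes had 13 of 89 (14.6%), led in fold enrichment by Sdhd and Ndufb5, with 19 and 17 reads. Ndufa5, lower in fold enrichment, had 20 reads. Cell cycle and DNA replication genes had 6 of 40 (15%), with Ccnb1 at 19 and Mcm6 at 24 reads. Zinc finger genes had 66 of 418 (15.8%), led in fold enrichment by Zfp954 with 38 and Zfp281 with 43 reads. Histone genes, many of which are near-identical copies, had 14 of 78 (17.9%), with H3f3a at 25 reads. Wild-type-only promoter peaks were at 4 mitochondrial ribosomal, 3 oxidative phosphorylation, 2 cell cycle, 9 zinc finger and 2 histone genes, and at none of the cytosolic ribosomal or splicing genes. The 2 histone genes, Hist1h2ak and Hist1h2bn on chromosome 13, had the same fold enrichment (3.08) and reads (12). The CpG-rich shares were 83.1% for oxidative phosphorylation, 95% for cell cycle, 59.3% for zinc finger and 41% for histone genes.

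**Figure D4:**
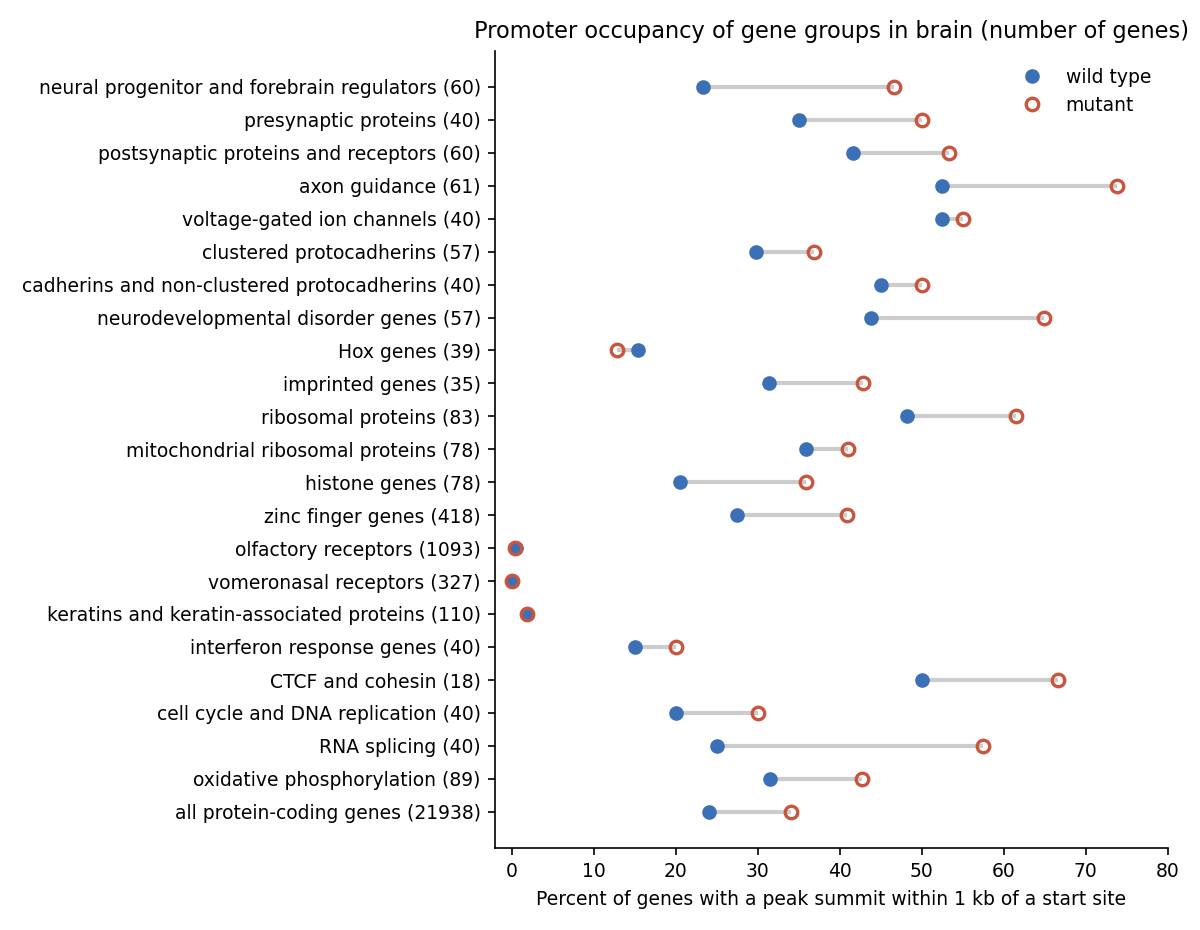
Percent of the genes in each group with a summit within 1 kb of a start site in the wild-type list (filled blue) and the mutant list (open red), with the number of genes in brackets. Over all protein-coding genes the percentages are 24% and 34%. RNA splicing genes run from 25% to 57.5%, voltage-gated ion channels from 52.5% to 55%, and Hox genes from 15.4% to 12.8%.

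Olfactory receptors had a promoter peak at 6 of 1093 genes in wild-type and 4 in mutant brain. The wild-type-only ones were Olfr1499, Olfr658 and Olfr452, with 43, 22 and 15 reads, and the mutant-only one was Olfr94, with 11. Vomeronasal receptors had none of 327, which allows a share of up to 0.917% at 3 genes of the total. Interferon response genes, a list the study examined in these mice and so not independent of it, had 6 of 40 with a peak in both lists. Mutant-only peaks were at Irf1 (24 reads) and Psmb8 (10), 5% of the list, against 11.6% over all protein-coding genes. Of this list 35% was CpG-rich. Imprinted genes had a peak in both lists at 11 of 35, none wild-type-only and a mutant-only peak at 4. These were Nnat (22 reads), Igf2r (19), Igf2 (12) and Cdkn1c (11). The mutant-only share of 11.4% was close to the 11.6% over all protein-coding genes, and 71.4% of the imprinted genes were CpG-rich.

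The gene bodies with the most peaks of 1 genotype were chosen by count alone, so long genes with many peaks lead. Over all peaks, 24.5% of mutant regions were mutant-only and 18.499% of wild-type regions wild-type-only. Camta1, a transcription activator gene of 945 kb, held 13 mutant-only of 40 mutant summits and 6 wild-type-only of 33 wild-type summits. The 2961-kb annotated span of Fgfr2 held 18 of 76 and 9 of 69. Gse1, in 353 kb, had 10 mutant-only of 34 mutant summits. Ctnna2, which encodes the neural alpha catenin, had 7 wild-type-only summits in 1098 kb, with 14 wild-type and 10 mutant summits in all. Kif6, a kinesin gene, had 6 wild-type-only of 10 wild-type summits in 295 kb. The models Gm20388 and Gm42416, which cover several genes each, held 46 mutant-only of 207 and 11 of 27 mutant summits, and Gm20388 also held 38 wild-type-only of 203 wild-type summits.

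Lastly, the brain classes were looked up in the 4 CTCF lists of heart and lung, which the rule had not used. Each is a single library of another length, so levels are comparable between classes within a list and not between lists. The wild-type lung list overlapped 65.2% of the wild-type-only class (64.01 to 66.3%), 90.8% of the shared class (90.5 to 91.2%) and 37.2% of the mutant-only class (36.3 to 38.2%). The mutant lung list overlapped 24.8%, 83.0% and 27.8%. The wild-type heart list overlapped 19.9%, 63.4% and 4.90%, and the mutant heart list 1.01%, 38.3% and 1.26%. Any of the 4 lists overlapped 67.5% of the wild-type-only and 44.9% of the mutant-only class, against 88.3% of all wild-type and 81.4% of all mutant regions. No overlap was found for 2169 of 6666 wild-type-only and 5177 of 9391 mutant-only peaks. Over all regions this held for 4227 of 36034 in wild type and 7130 of 38390 in the mutant.

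Within each lung list the overlap was larger at higher brain signal. Among wild-type-only peaks of at least 50 reads, 97.8% of 365 were in the wild-type lung list (95.7 to 98.9%) and 43.3% in the mutant lung list (38.3 to 48.4%). Among mutant-only peaks of at least 50 reads, 79.6% of 54 were in the wild-type lung list (67.1 to 88.2%) and 87.0% in the mutant lung list (75.6 to 93.6%). Between 25 and 49 reads the shares were 86.3% and 36.5% for wild-type-only peaks, and 60.3% and 57.2% for mutant-only peaks. Over all brain peaks, the wild-type lung list overlapped 86.1% of wild-type and 78% of mutant regions, and the mutant lung list 72.2% and 69.7%. Below 15 reads, the 2 lung lists in this order overlapped 37.4% and 12.8% of wild-type-only peaks and 23.2% and 12.6% of mutant-only peaks.

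**Figure D5:**
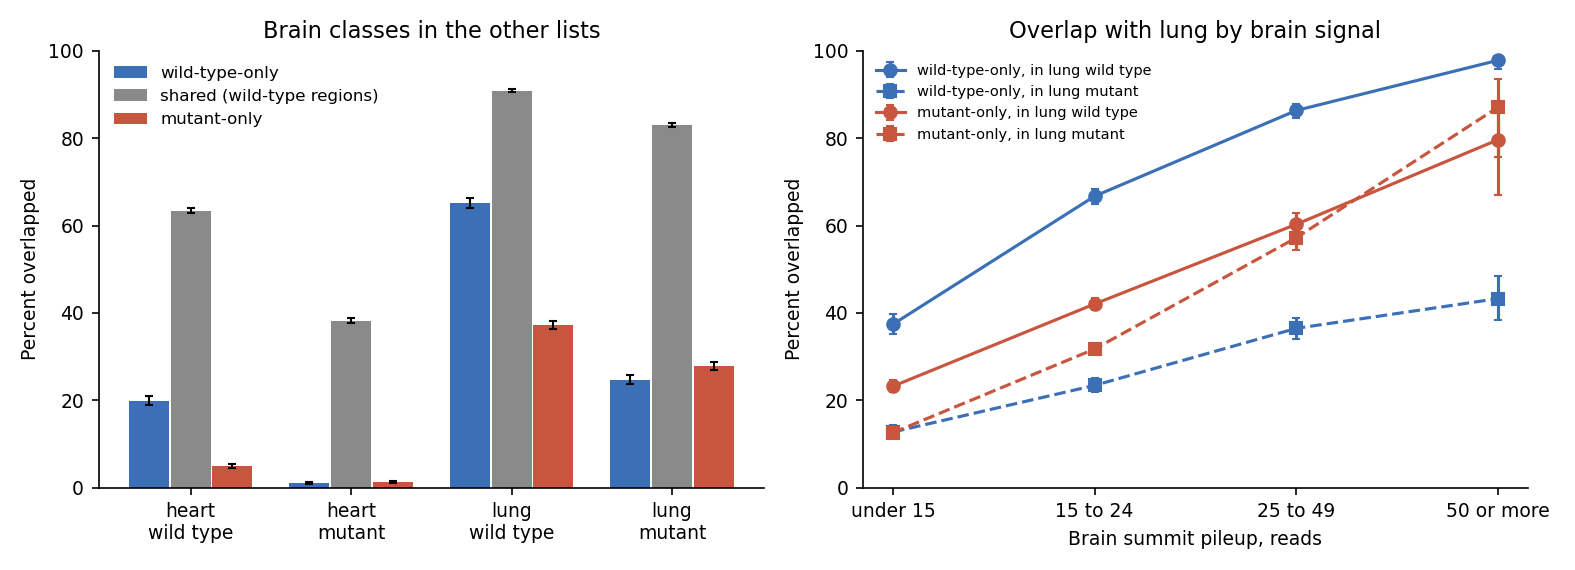
Left, percent of each brain class overlapped by the wild-type and mutant lists of heart and lung. Right, the same for lung by brain summit pileup, for wild-type-only (blue) and mutant-only (red) peaks in the wild-type (solid line) and mutant (dashed line) lung list. Bars show 95% Wilson intervals. At 50 reads or more, 97.8% of wild-type-only peaks are listed in wild-type lung and 43.3% in mutant lung.

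Across the autosomes the wild-type-only share ran from 15.9% on chromosome 19 to 21.9% on chromosome 14, and the mutant-only share from 22.2% on chromosome 13 to 27.4% on chromosome 5. Chromosome X had 21.7% and 22.3%, and chromosome Y had 2 wild-type peaks and 1 mutant peak.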

How the data were processed

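CTCF ChIP-seq peaks of E18.5 brain were analysed from 1 wild-type and 1 homozygous mutant library. Per the study's methods and the submitters' processing notes, the authors trimmed reads (Trim Galore), aligned them to mixed mm10 and hg38 genomes (Bowtie2), kept uniquely mapped reads, separated species and called peaks per library (MACS2, default options). Which input served as control was not given in the sources used here. The deposited lists give fold enrichment, the authors' ratio of summit pileup to local background, −log10 p and −log10 q by the peak caller, and a deposited score made from q, which was not used. The lists carry no spike-in scaling.

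Lines with the same region were merged. Summit pileup, a whole read number, and local background were solved from fold enrichment and −log10 p. Sequence and annotation were GRCm38. A 19-column core matrix was learned from the 2000 strongest wild-type peaks (1966 sites) and called at p of 0.0001 within 100 bp of the summit. TGCAGTNCC was sought within 30 bases upstream of the core with at most 2 mismatches. Intervals are 95% Wilson intervals. The scripts were tested on simulated data.

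Named genes are the 10 mutant-only and 10 wild-type-only promoter peaks of highest fold enrichment, the 5 shared promoter sites highest and the 5 lowest in scaled ratio with at least 40 reads in the higher list, up to 4 members per genotype of each gene list by fold enrichment, and the 5 gene bodies with most peaks of each class. Some genes that this rule selects are not reported here. The members and lists were chosen with earlier results of these data known. Alternatives covered the q threshold, overlap, list length, chromosomes, promoter width, motif matrix and motif threshold. Analyses ran in Python 3.11.15 with pandas 2.3.3 and numpy 2.4.6, intervals came from statsmodels 0.14.6, Poisson tails from scipy 1.17.1 and plots from matplotlib 3.10.9.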

Additional observations from a re-analysis of the deposited data

How the results depend on the processing

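Of 66 values under alternative settings, 31 stayed within the interval of the reported value (within 1.5 times for gene counts) and 35 moved. Values below follow the order wild-type-only, shared, mutant-only. At a −log10 q of 5 or more, the unshared shares were 17.7% of wild-type and 20.2% of mutant peaks, promoter shares 9.14%, 19.1% and 31.6%, and core motif shares 83.6%, 93.3% and 79.7%. With lists of equal length, the unshared shares were 19.5% and 20.5%, promoter shares of the wild-type-only and mutant-only classes 10.9% and 31.1%, and the mutant-only core share 77.5%. Promoters of 2 kb gave 15.8%, 26.9% and 40.9%. The matrix learned from mutant peaks gave core shares of 92.5% (shared) and 73.4% (mutant-only), and a core threshold of 1e-05 gave 56.2%, 76.6% and 46.9%. A further 2 settings were chosen after the data were seen. At a −log10 q of 20 or more, the unshared shares were 19.1% and 13.6%, which turned their order, promoter shares were 7.52%, 18.3% and 38.2%, core shares 90.5%, 95.9% and 86.3%, and genes with a wild-type-only or mutant-only promoter peak 163 and 1024. Counting as unshared only peaks with none of the other list within 1 kb gave 17.1% and 21.9%, and promoter shares of 8.45% and 32.4%. The cause of these shifts was not tested. In every setting that gave them, the promoter share was lowest in the wild-type-only and highest in the mutant-only class.

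With 1 library per genotype there was no replicate to leave out, and the lowest listed pileup of 8 reads limits what an unlisted site shows. No paired analysis was possible because each genotype had 1 library and no test was made.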
